A study of Mus musculus with 16 samples.

Results

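Somatic cells of the fetal mouse testis that lacked Inhba were compared at embryonic days E15.5 and E13.5. Inhba encodes the beta A chain, 2 copies of which make up activin A. The comparison takes the GFP-negative libraries labelled KO, which are 8 of the 16 libraries of the study, 4 at each age. The main test used 7 of them, 4 at E15.5 and 3 at E13.5, because KO E13.5 replicate 1 carried germ cell transcripts. Counts of called genes with that library are given beside those without it. The 8 wild-type (WT) libraries, 4 at each age, entered the same fit, so they also set the spread used for the KO test. Their own age effect is given beside that of KO, with the test of the difference.

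All mice came from a cross of Inhba with an Oct4-GFP reporter, labelled Inhba x Oct4 GFP KO or WT, on the strain C57/Bl6/129svJ. WT and KO alike thus carried the reporter, which marks germ cells. Per the labels, both gonads of an embryo were taken without mesonephros and dispersed, and viable GFP-negative cells were sorted. About 20 ng of RNA with an integrity number of 8.4 to 9.6 went into each library (Nugen Trio kit), which was read on an Illumina HiSeq3000. The design text gives 3 to 4 individual animals per age and genotype against 4 libraries in each group, so some libraries may share an animal. The title number 1052 is on KO E15.5 replicates 1 and 2, and 855 is on KO E15.5 replicate 3 as well as WT E15.5 replicate 2. That number cannot mark an animal, since a KO and a WT library carry it, and what it marks is not stated. A second number follows it in each title, 2 and 4 for the libraries of 1052, and 1 for KO and 2 for WT in 855. The meaning of this second number is not stated either. The p-values measure the spread between these libraries. The labels do not say which part of Inhba was deleted or in which cells, and no label gives the litter.

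Activin A is a ligand of the TGF-beta superfamily. It binds type 2 and type 1 serine/threonine kinase receptors, which phosphorylate SMAD2 and SMAD3, and these enter the nucleus with SMAD4. In the fetal testis it is made mainly by fetal Leydig cells and acts on Sertoli cells, whose proliferation it sustains while the cords elongate. Over the days sampled here Sertoli cells line the cords, Leydig cells begin to make androgens, peritubular cells gain a contractile coat, and vessels and macrophages settle in the interstitium.

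The shallowest library, KO E13.5 replicate 3, held 6131592 counts, and the deepest, of WT E15.5, held 23324810. Pairs of KO libraries of one age differed by 10.6 to 249 chi-square units per degree of freedom at E13.5 and by 10.7 to 23.5 at E15.5, so none was a copy of another. Levels are given in CPM, counts scaled to a common library size. The 20 germ cell genes summed to 17.9, 61.7 and 24.2 CPM in KO E13.5 replicates 2, 3 and 4 and to 53.7, 58.1, 18.6 and 17.9 in KO E15.5 replicates 1 to 4. They summed to 5230 CPM in KO E13.5 replicate 1, where the Sertoli list summed to 904 CPM against 4070 to 4650 in the other 3 libraries of its group. Defining markers of Sertoli, Leydig, stromal, myoid and endothelial cells were present in all 7 libraries of the main test. Below, CPM values are listed for KO E13.5 replicates 2, 3 and 4 and then for KO E15.5 replicates 1 to 4. A gene is called when the Benjamini-Hochberg adjusted p of edgeR's quasi-likelihood test is under 0.05, and a log2 fold change stands with its SE.

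Inhba itself was lower in KO than in WT at each age and rose with age in both. Its CPM was 8.36, 7.36 and 5.78 at E13.5 and 50.6, 44.3, 36.5 and 39.6 at E15.5, from 44 to 130 and 638 to 992 counts. The KO libraries of the older age were all higher, and the log2 fold change was 2.58 ± 0.27 (edgeR adjusted p = 2.39e-05). WT libraries stood at 73.8 ± 24.7 CPM (SD, n = 4) at E13.5 and 292.5 ± 68.4 at E15.5, a log2 fold change of 1.99 ± 0.21. The difference of the age effects, KO minus WT, was 0.60 ± 0.34 and was not called (adjusted p = 0.774). Since these are gene totals, they do not give the exons behind the KO reads.

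Between E13.5 and E15.5 the KO cells gained transcripts of smooth muscle, stromal and interstitial matrix genes and lost transcripts of Sertoli, endothelial, Notch and fetal growth genes. Of 20406 genes tested, 4350 were called (21.3%), 2127 higher (10.4%) and 2223 lower (10.9%), and the median log2 fold change of all genes was 0.003. These shares are the background for the list counts below, and in WT they were 12.1% higher and 10.7% lower. At 2-fold or more, 1066 of the genes called in KO were higher and 383 lower. The KO libraries of the 2 ages did not overlap for 6159 genes (30.2%). With upper quartile normalization the calls split 2507 higher to 1647 lower.

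With KO E13.5 replicate 1 included, 3084 of 20076 genes were called (15.4%), 1508 higher (7.51%) and 1576 lower (7.85%), and 2515 of them had been called in the same direction without it. In the 8 KO libraries alone 336 genes were called, 290 higher and 46 lower, against 3587 in the 7 KO libraries alone. Leaving out KO E13.5 replicate 4 gave 2491 calls, and leaving out any other KO library gave 3034 to 4352. Summing the 2 KO E15.5 libraries of title number 1052 gave 3311 calls of 20333 genes (16.3%), 1656 higher and 1655 lower. The naming rule took 136 called genes, of which 85 were also called with KO E13.5 replicate 1, 48 of 55 increases and 37 of 81 decreases.

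**Figure D1:**
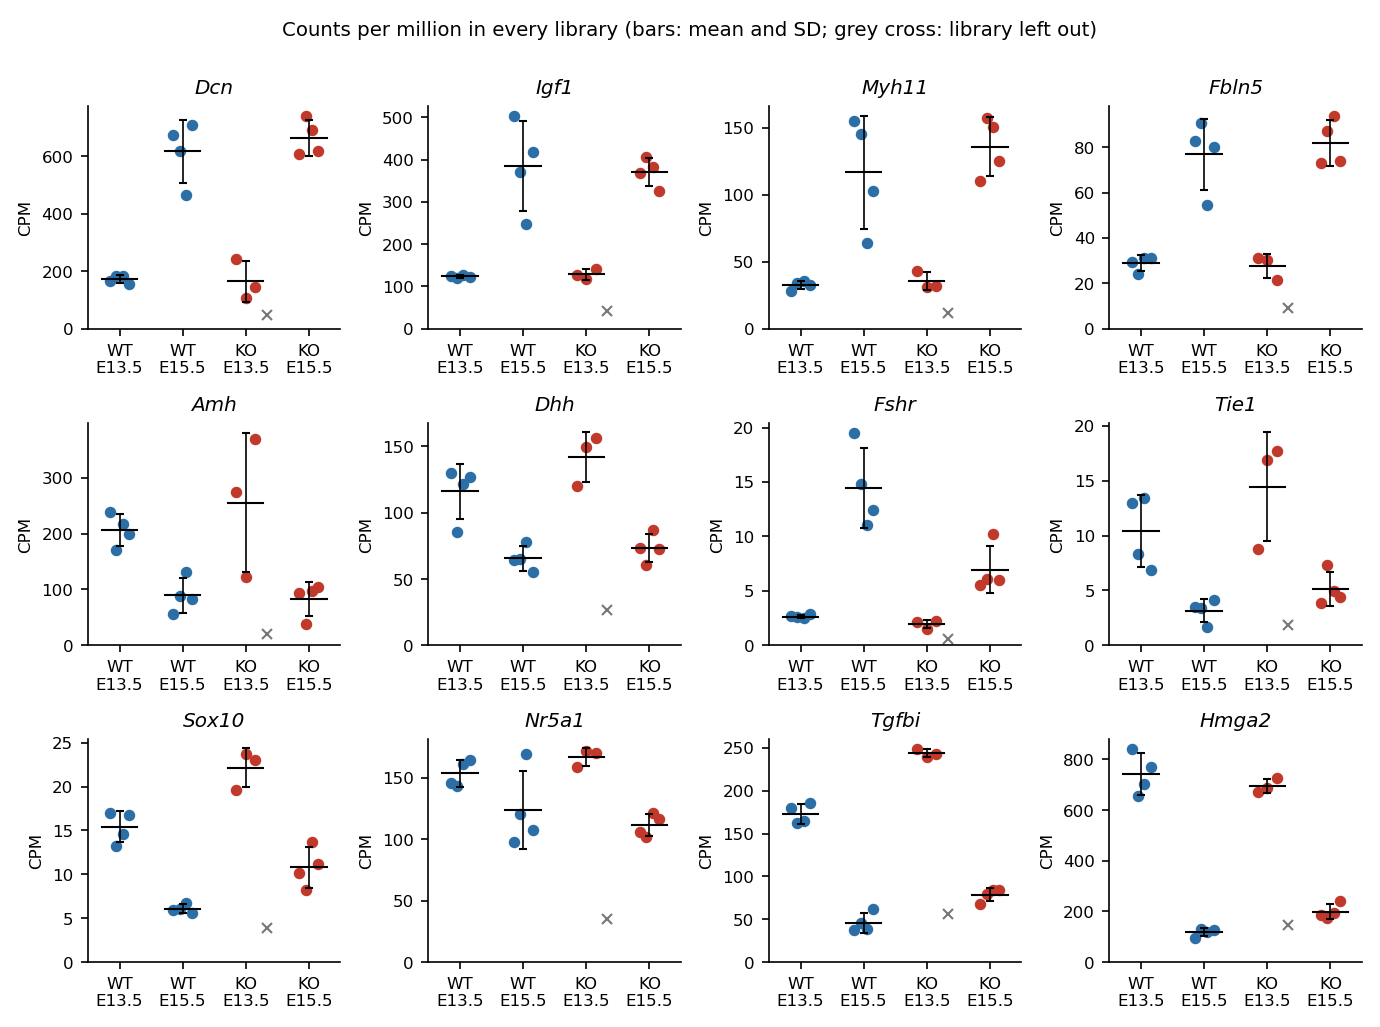
CPM (vertical axes, linear and starting at 0) of 12 genes in WT (blue) and KO (red) libraries at both ages; each point is a library, the bar and whisker are the mean and SD, and the grey cross is KO E13.5 replicate 1, which enters neither. In KO, Dcn, Igf1, Myh11, Fbln5 and Fshr sit higher at E15.5 in every library, and the other 7 genes sit lower in every library.

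Peritubular myoid and smooth muscle genes were the list with the highest share of increases. In KO, 10 of 14 members rose, against 10.4% of all genes tested, and none fell, with a median log2 fold change of 0.77. In WT, 9 rose and 2 fell, with a median of 0.62. Myh11, the smooth muscle myosin heavy chain, stood at 43.3, 31.1 and 32.0 CPM at E13.5 and 110, 158, 150 and 125 at E15.5. Every older library was higher, and the log2 fold change was 1.93 ± 0.24 (edgeR adjusted p = 8.9e-05). Myl9, the regulatory light chain of smooth muscle myosin (0.74 ± 0.13), Tpm2, a tropomyosin (0.74 ± 0.12), and Mylk, the kinase of that light chain (0.68 ± 0.12), also rose without overlap. The count stayed at 10 higher with KO E13.5 replicate 1 and was 8 to 10 without 1 KO library at a time.

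Stromal and progenitor genes of the interstitium rose more often than they fell. Of 22 members 11 rose and 4 fell, with a median of 0.46. Dcn, which encodes the collagen-binding proteoglycan decorin, stood at 243, 106 and 146 CPM and then at 606, 740, 692 and 619 CPM, a log2 fold change of 2.00 ± 0.21 (edgeR adjusted p = 2.19e-05). Igf1, insulin-like growth factor 1, went from 127, 117 and 141 CPM to 368, 406, 383 and 325 (1.53 ± 0.17). For both genes the lowest older library was above the highest younger one. Ogn, osteoglycin, rose by 2.48 ± 0.25 on the log2 scale. In WT the list split 8 higher to 6 lower, with a median of 0.07, and no member was called for the difference of the age effects. The KO count was 9 higher and 0 lower with KO E13.5 replicate 1.

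Interstitial matrix genes, the collagens and elastic fibre proteins laid down around the cords, rose in 13 of 20 cases and fell in 1, with a median of 0.74. Fbln5, fibulin 5 of elastic fibres, stood at 31.1, 30.1 and 21.6 CPM and then at 73.0, 87.1, 93.9 and 73.8 CPM (1.58 ± 0.17, edgeR adjusted p = 3.03e-05). Eln, elastin, went from 16.5, 11.9 and 11.3 CPM to 56.7, 49.6, 45.2 and 39.5 (1.84 ± 0.23). Neither gene's ages overlapped. Col6a2 (1.21 ± 0.17) and Col1a2 (0.87 ± 0.12), chains of collagens VI and I, rose as well. In WT 14 rose and 1 fell, with a median of 0.68, and with KO E13.5 replicate 1 the KO count was 11 higher and 0 lower. Basement membrane genes were mixed, with 5 of 18 higher and 1 lower and a median of 0.07. Lama2, a laminin chain of muscle and peritubular basement membrane, rose from 197, 113 and 104 CPM to 559, 620, 578 and 502 (2.03 ± 0.22). Col18a1, the collagen that releases endostatin, fell from 589, 670 and 771 CPM to 233, 235, 262 and 258 (-1.45 ± 0.12). Col4a4, a collagen IV chain (1.18 ± 0.27), and Nid2, nidogen 2 (0.50 ± 0.15), rose. Leaving out KO E13.5 replicate 3 or 4 or KO E15.5 replicate 2 left 2 increases in this list, and without KO E15.5 replicate 1 there were 3. The list had 4 higher and 1 lower with KO E13.5 replicate 1.

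Called endothelial genes were all lower. In KO, 11 of 19 were lower and none higher, with a median of -0.92, and in WT 10 were lower and none higher, with a median of -0.86. Tie1, an endothelial receptor tyrosine kinase, stood at 8.75, 16.9 and 17.7 CPM and then at 3.83, 7.35, 4.96 and 4.44 CPM (-1.49 ± 0.32, edgeR adjusted p = 0.00376). Icam2, an adhesion molecule of endothelium, went from 5.08, 6.36 and 6.08 CPM to 1.94, 2.36, 2.20 and 1.43 (-1.55 ± 0.31). The older libraries were all lower for both. Emcn, endomucin (-0.92 ± 0.21), and Mmrn2, an endothelial matrix protein (-0.99 ± 0.24), fell too. In bulk libraries fewer cells of a type cannot be told apart from less RNA per cell, here and for each cell type list. The count was 3 lower with KO E13.5 replicate 1, 4 when KO E13.5 replicate 4 was left out and 7 when KO E15.5 replicate 1 was. Of 7 pericyte genes only Rgs5, a regulator of G protein signalling, was called, and it rose by 1.59 ± 0.28. Leaving out KO E13.5 replicate 2 gave 3 pericyte genes that rose, and adding KO E13.5 replicate 1 gave 1.

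Sertoli genes fell more often than they rose. In KO 15 of 28 were lower and 1 higher, with a median of -0.65, and in WT 11 were lower and 6 higher, with a median of -0.24. Dhh, desert hedgehog, which Sertoli cells send to Leydig and peritubular cells, stood at 120, 149 and 156 CPM and then at 73.1, 60.4, 86.8 and 72.7 CPM (-0.95 ± 0.15, edgeR adjusted p = 0.000532). Gdnf, a growth factor for germ cells, went from 64.2, 63.7 and 68.2 CPM to 37.1, 37.0, 40.7 and 33.8 (-0.82 ± 0.15). Every older KO library was lower for both, and neither gene was called for a difference from WT (adjusted p = 0.943 and 0.559). Col9a3, a collagen IX chain, fell by 0.97 ± 0.17 on the log2 scale. Fshr, the receptor of follicle-stimulating hormone, was the 1 member that rose, from 2.12, 1.5 and 2.24 CPM to 5.56, 6.11, 10.2 and 6.01 (1.78 ± 0.26, adjusted p = 0.000324).

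Sox9, the transcription factor that sets Sertoli fate, was looked up after its values were seen. It stood at 252, 232 and 286 CPM and then at 135, 124, 191 and 139 CPM, and fell by 0.80 ± 0.15 on the log2 scale. The Sertoli list summed to 4070 to 4650 CPM in the 3 KO E13.5 libraries and to 2520 to 3860 in KO E15.5, ranges that did not overlap. In WT the sums were 3140 to 3990 CPM at E13.5, below all 3 KO libraries, and 2630 to 3930 at E15.5, overlapping KO. When KO E13.5 replicate 1 was in the fit, 1 member was higher and none lower in KO. Without 1 other KO library at a time 15 or 16 were lower.

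Among fetal Leydig genes 5 of 17 members fell and 1 rose (median -0.39, against 0.12 in WT). Their sum was 4850 CPM in WT E15.5 replicate 3, against 2030, 2200 and 2100 in replicates 1, 2 and 4. KO E15.5 had 2120 to 2900 CPM. At E13.5 the sums were 2550 to 2640 CPM in KO and 1780 to 2940 in WT. The part of WT E15.5 replicate 3 in the WT median was not tested. Fdxr, which passes electrons to the mitochondrial steroid enzymes, stood at 91.6, 115 and 104 CPM and then at 61.2, 60.5, 62.5 and 65.4 CPM (-0.72 ± 0.16, edgeR adjusted p = 0.00437). Nr5a1, the nuclear receptor SF1 that drives steroid genes, went from 159, 172 and 170 CPM to 106, 102, 121 and 117 (-0.58 ± 0.14). Mc2r, the corticotropin receptor, fell by 1.35 ± 0.31 on the log2 scale, and older libraries were lower without overlap for all 3. Prlr, the prolactin receptor, rose by 1.04 ± 0.13. Star, Cyp11a1, Cyp17a1 and Insl3, chosen after their values were seen, encode the cholesterol carrier of mitochondria, a pair of androgen synthesis enzymes and a hormone of testis descent. Their log2 fold changes in KO were -0.48 ± 0.36, 0.15 ± 0.36, 0.20 ± 0.31 and -0.40 ± 0.49, and none was called.

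Sex steroid enzymes had 4 of 14 tested members lower and none higher. Hsd3b6, a 3-beta-hydroxysteroid dehydrogenase, was the steepest, from 29.0, 73.6 and 130 CPM to 0.867, 0.624, 1.10 and 5.51 (-5.18 ± 0.90, adjusted p = 0.00103 by edgeR). WT moved the same way, by -4.58 ± 0.84. Por, the electron donor of microsomal cytochromes P450 (-0.51 ± 0.15), and Cyb5a, cytochrome b5 (-0.32 ± 0.10), also fell. However, Cyb5a was called in 6 and Por in 11 of 17 settings beside the main test. These 17 were other normalizations, filters and tools, other sets of libraries, and each KO library left out. No Leydig gene and 1 steroid enzyme were lower with KO E13.5 replicate 1. The Leydig count was 3 without KO E13.5 replicate 3 or 4 or KO E15.5 replicate 1, 2 or 4, and the enzyme count was 2 without KO E13.5 replicate 4 or KO E15.5 replicate 2.

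The letters AAGGTCA, recognised by NR5A1 and chosen with the values known, were looked for on both strands in the 250 bases before RefSeq starts. They were in 1 of 13 promoters of 10 Leydig genes (7.69%), that of Akr1b7, and in 0 of 14 promoters of 11 steroid enzymes, against 4.08% of all 32851 promoters in the table. Such a match describes letters only.

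Cholesterol synthesis and uptake genes, which supply steroidogenesis, had 2 of 25 members higher in KO and none lower, with a median of 0.20. Both counts are below the shares of all genes tested in KO, 10.4% higher and 10.9% lower. In WT 12 were higher, against 12.1% of all genes, with a median of 0.59. Sqle, squalene epoxidase, rose by 0.66 ± 0.16, and Sc5d, a late sterol desaturase, by 0.51 ± 0.17 on the log2 scale, Sc5d in 10 of 17 settings. The difference of the age effects was below 0 for 25 of 25 members, with a median of -0.35 against -0.006 over all genes, and none was called. The genes of a list are not independent replicates. The list summed to 3020 CPM in WT E15.5 replicate 3, against 1930, 2010 and 1850 in replicates 1, 2 and 4. KO E15.5 had 1940 to 2210 CPM. At E13.5 the sums were 1270 to 1970 CPM in KO and 1220 to 1770 in WT. The part of WT E15.5 replicate 3 in this list's difference was not tested. In the 7 KO libraries alone 4 members were higher, with KO E13.5 replicate 1 1 was, and without KO E13.5 replicate 3 or 4 or KO E15.5 replicate 1, 2 or 4 1 was.

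Macrophage and blood immune genes rose in 5 of 17 cases in KO (median 0.41) and in 11 in WT (median 1.01). They summed to 229 to 462 CPM in KO E15.5 libraries and to 184 to 395 in WT E15.5. At E13.5 the KO libraries, at 135 to 191 CPM, all lay above the WT ones, at 80.6 to 108. Lyz2, lysozyme of phagocytes, stood at 12.8, 38.8 and 26.8 CPM and then at 77.6, 64.6, 119 and 199 CPM (2.19 ± 0.49, edgeR adjusted p = 0.00513). Lyve1, a hyaluronan receptor, went from 2.64, 1.5 and 1.77 CPM to 7.04, 6.52, 12.4 and 6.46 (2.00 ± 0.28). The ages did not overlap for either. Mrc1, the mannose receptor (0.92 ± 0.21), and Ccr2, a monocyte chemokine receptor (1.40 ± 0.38), were the other named increases. The count was 4 higher with KO E13.5 replicate 1 and 3 without KO E13.5 replicate 2 or 4.

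The other cell types were mostly lower or mixed. Neural crest and glial genes had 5 of 9 tested members lower, with Sox10, the glial lineage factor, at 19.6, 23.8 and 23.1 CPM and then 10.2, 8.19, 13.7 and 11.1 CPM (-1.03 ± 0.16). Fabp7, a fatty acid carrier of glia (-1.43 ± 0.25), and Ngfr, the low-affinity neurotrophin receptor (-0.41 ± 0.11), fell as well, and 3 members fell without KO E13.5 replicate 2. Of 12 mesonephros and surface epithelium genes 4 fell and 1 rose. Krt8 and Krt18, keratins of simple epithelia, fell by 1.66 ± 0.20 and 1.19 ± 0.25 on the log2 scale and Emx2, a homeobox factor, by 0.66 ± 0.14. Msln, mesothelin, rose from 0.0643, 0 and 0 CPM to 1.02, 1.39, 1.10 and 0.986, so no fold is given. Erythroid genes had 3 of 14 members lower, the embryonic globins Hbb-y, Hba-x and Hbb-bh1, and their list summed to 3010 to 10400 CPM at E13.5 and 115 to 1330 at E15.5. Granulosa genes had 1 of 8 higher and 2 lower: Wnt4, a signal of the ovarian pathway, rose by 0.75 ± 0.16, Lgr5, a Wnt pathway receptor, fell by 0.82 ± 0.18 and Kctd14 fell by 2.46 ± 0.32. Germ cell genes had 1 of 17 lower, a share below the 10.9% of all genes: Utf1, a chromatin factor of pluripotent cells (-2.39 ± 0.41). With KO E13.5 replicate 1 they had 14 lower and a median of -4.63. The test without KO E13.5 replicate 3 had 4 germ cell genes higher. Including KO E13.5 replicate 1 gave 2 lower neural crest genes, 1 lower and 0 higher mesonephros genes, 3 lower erythroid genes, and 1 lower and 1 higher granulosa gene.

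**Figure D2:**
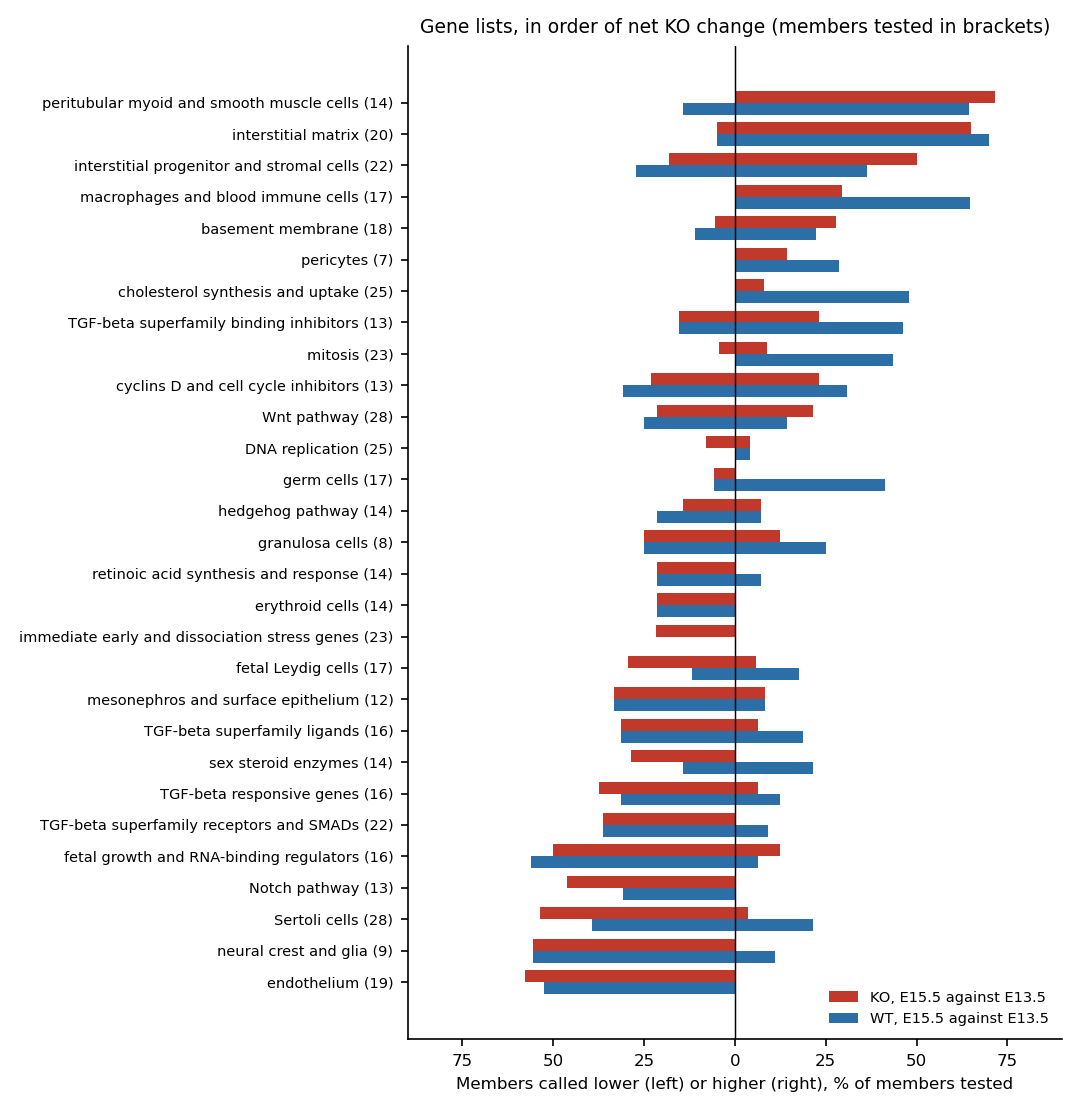
Share of the tested members of 29 gene lists called lower (bars to the left) or higher (bars to the right) at E15.5 against E13.5, in percent, for KO (red) and WT (blue) with 15 libraries; bars start at 0 and the number tested stands in brackets. Myoid, matrix and stromal lists lie on the right in KO, endothelium, neural crest and Sertoli lists on the left, and the background share is 10.4% higher and 10.9% lower in KO.

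In the TGF-beta superfamily more ligands, receptors and SMADs fell than rose in KO, as in WT. The 1 ligand that rose in KO was Inhba, the knocked-out gene itself. Of 16 ligand genes 5 fell and 3 rose in WT. In KO 5 fell and 1 rose (median -0.15, against -0.14 in WT), beside 10.9% and 10.4% of all genes tested. Amh, the Sertoli hormone that removes the Müllerian ducts, stood at 274, 122 and 370 CPM and then at 93.4, 37.7, 96.8 and 105 CPM (-1.62 ± 0.34, edgeR adjusted p = 0.00363). Inha, the inhibin subunit that pairs with a beta subunit to make the antagonist of activin, went from 46.7, 57.5 and 68.8 CPM to 25.7, 22.7, 29.5 and 32.1 (-1.07 ± 0.23). All older libraries were lower for both. Inha in WT was 50.04 to 68.2 CPM at E13.5 and 57.1 to 137 at E15.5 (0.47 ± 0.21), and the difference of the age effects was -1.54 ± 0.31 and not called (adjusted p = 0.0952). Inhbb, the beta B subunit of activin B, fell by 0.65 ± 0.13 on the log2 scale, and Bmp7 and Tgfb1 by 0.80 ± 0.26 and 0.54 ± 0.16. The count of lower ligands was 1 with KO E13.5 replicate 1 and 3 without KO E13.5 replicate 2 or KO E15.5 replicate 1 or 2. Without KO E13.5 replicate 2, 3 ligands were higher.

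Of 22 receptor and SMAD genes 8 fell and none rose (median -0.08). Acvr2b, a type 2 activin receptor, stood at 12.8, 14.2 and 13.7 CPM and then at 7.96, 7.42, 7.35 and 10.4 CPM (-0.70 ± 0.15, edgeR adjusted p = 0.00369). Among type 1 receptors Acvr1c (-1.0 ± 0.28) and Acvr1b (-0.35 ± 0.11) fell, as did Amhr2, the receptor of AMH (-0.77 ± 0.19). Smad6 and Smad7, inhibitory SMADs induced by the pathways they brake, fell by 0.81 ± 0.14 and 0.68 ± 0.16 on the log2 scale, Smad9 by 0.89 ± 0.21 and Smad3 by 0.32 ± 0.09. Acvr2a (-0.04 ± 0.08), Smad2 (0.05 ± 0.21) and Smad4 (-0.05 ± 0.08) were not called. WT had 8 lower and 2 higher, and no receptor or SMAD was called for a difference. The KO count was 2 lower with KO E13.5 replicate 1 and 5 without KO E13.5 replicate 4 or KO E15.5 replicate 1.

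The list of binding inhibitors, which also holds latent TGF-beta binding proteins and a pseudoreceptor, had 3 of 13 tested members higher and 2 lower. Ltbp2, a latent TGF-beta binding protein family member of elastic tissue, rose from 0.836, 0.836 and 1.12 CPM to 5.92, 6.17, 6.61 and 4.71 (2.61 ± 0.30, edgeR adjusted p = 4.46e-05). Ltbp4 (0.75 ± 0.16) and Ltbp3 (0.37 ± 0.13), of the same family, rose as well. Bambi, a pseudoreceptor, fell (-0.54 ± 0.09). Fst, follistatin, which binds activin, stood between 1.48 and 2.12 CPM and then between 2.71 and 3.57 CPM and was not called (0.82 ± 0.39, adjusted p = 0.138). The list had 2 higher and 1 lower with KO E13.5 replicate 1.

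TGF-beta responsive genes had 6 of 16 members lower and 1 higher, with a median of -0.62 in KO and -0.11 in WT. They summed to 3100, 2580 and 3760 CPM in KO E13.5 and to 1820 to 2200 in KO E15.5. In WT, E13.5 replicate 4 (3130 CPM) and E15.5 replicate 3 (2690 CPM) were the highest of their ages. These WT libraries and KO E13.5 replicates 2 and 4 were also the highest of their groups for the dissociation stress genes below. The part of that in this list's values was not tested. Tgfbi, which encodes a TGF-beta-induced adhesion protein of the matrix, stood at 249, 240 and 242 CPM and then at 67.9, 79.3, 84.0 and 84.0 CPM (-1.63 ± 0.14, edgeR adjusted p = 3.53e-06). Skil, a feedback repressor of SMAD2 and SMAD3, went from 366, 360 and 390 CPM to 232, 218, 260 and 228 (-0.67 ± 0.13). Both fell in every older library. Id2, a helix-loop-helix inhibitor, fell by 0.96 ± 0.18 on the log2 scale, and Lox, the collagen crosslinking enzyme, rose by 1.29 ± 0.18. Tgfbi fell in WT too (-1.91 ± 0.13), whereas Skil was not called there (-0.15 ± 0.12), and neither was called for a difference of the age effects (adjusted p = 0.828 and 0.515). With KO E13.5 replicate 1 there were 2 lower and 1 higher.

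**Figure D3:**
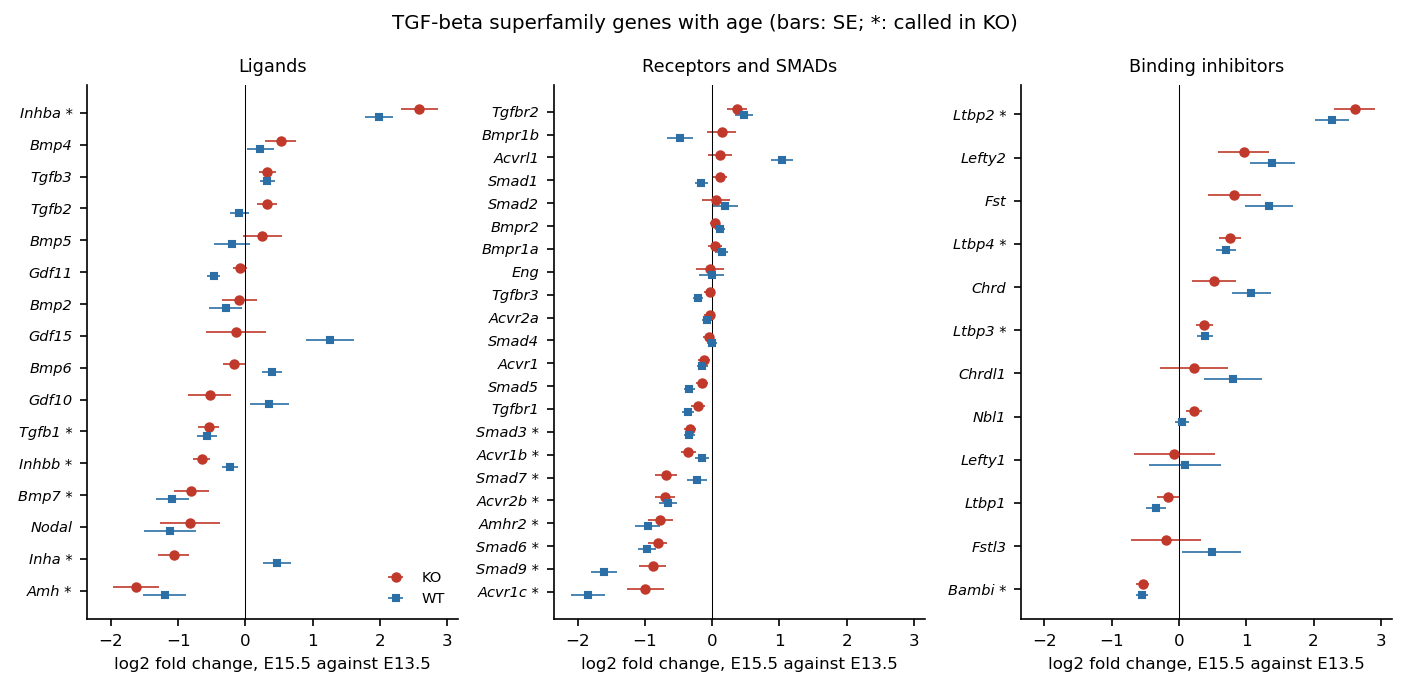
Log2 fold change of E15.5 against E13.5 (horizontal axes) for the tested ligands, receptors and SMADs, and all but 1 of the tested binding inhibitors of the TGF-beta superfamily, in KO (red circles) and WT (blue squares) with SE as bars; an asterisk marks genes called in KO. Inhba and Ltbp2 lie farthest to the right at 2.58 and 2.61 in KO, Amh farthest to the left at -1.62, and Inha lies at -1.07 in KO and 0.47 in WT.

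Fetal growth and RNA-binding regulators, a group that declines as fetal tissues mature, had 8 of 16 members lower and 2 higher in KO, with 9 lower and 1 higher in WT. Hmga2, a chromatin protein of growing fetal cells, stood at 672, 688 and 726 CPM and then at 186, 173, 193 and 243 CPM (-1.81 ± 0.12, edgeR adjusted p = 2.21e-07). Its fall in WT was -2.66 ± 0.12, and the difference of 0.85 ± 0.16 was not called (adjusted p = 0.0692). Igf2bp1, a fetal messenger RNA-binding protein, went from 81.3, 86.0 and 87.4 CPM to 31.5, 37.9, 26.8 and 43.1 (-1.29 ± 0.13). Igf2bp2 fell by 0.36 ± 0.06 on the log2 scale and Plagl1, an imprinted zinc finger factor, rose by 0.78 ± 0.14. The imprinted neighbours Igf2 and H19, chosen after their values were seen, fell by 0.43 ± 0.12 and 0.61 ± 0.12, Igf2 in 11 of 17 settings. It had 6 lower and 2 higher with KO E13.5 replicate 1.

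The Notch list had 6 of 13 members lower and none higher. Hes1, a Notch target, stood at 168, 64.4 and 76.6 CPM and then at 31.0, 36.4, 48.8 and 38.1 CPM (-1.42 ± 0.30, edgeR adjusted p = 0.00386). Hey1, another target, went from 33.6, 25.2 and 21.1 CPM to 12.8, 18.0, 15.6 and 12.5 (-0.86 ± 0.19). The ages did not overlap for either gene. Dll4, a vascular Notch ligand (-1.34 ± 0.32), and Notch4, an endothelial receptor (-0.68 ± 0.21, in 7 of 17 settings), fell beside the endothelial list above, and the part of vessels in these values was not tested. The Notch count was 4 with KO E13.5 replicate 1, 3 without KO E13.5 replicate 2 or KO E15.5 replicate 1 or 4, and 2 without KO E13.5 replicate 4.

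The Wnt list split 6 higher to 6 lower of 28. Dkk1, a secreted Wnt inhibitor, fell by 1.72 ± 0.30 on the log2 scale, whereas Dkk3 (0.67 ± 0.12), Sfrp1, a Wnt-binding protein (0.63 ± 0.10), and Wnt5a, a noncanonical ligand (0.53 ± 0.10), rose. Wnt5a was 0.01 ± 0.09 in WT, and the difference was not called (adjusted p = 0.265). Hedgehog genes had 1 of 14 higher, the co-receptor Cdon (0.53 ± 0.11), and 2 lower, Dhh and Hhip, a hedgehog-binding target gene (-0.44 ± 0.15, in 5 of 17 settings). Those counts are near the 10.4% higher and 10.9% lower of all genes tested. Leaving out KO E13.5 replicate 2 gave 4 higher hedgehog genes. Retinoic acid genes had 3 of 14 lower: Cyp26b1, which destroys retinoic acid in the testis (-0.66 ± 0.14), Crabp1, a carrier (-1.52 ± 0.41), and Rara, a receptor (-0.44 ± 0.13). Only 1 was lower without KO E13.5 replicate 2 or 4. With KO E13.5 replicate 1 in the fit, the Wnt list had 4 higher and 2 lower, the hedgehog list 1 higher and 0 lower and the retinoic acid list 1 lower.

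Of 23 mitosis genes 2 rose and 1 fell in KO, with a median of 0.03. Both counts are below the shares of all genes tested, 10.4% higher and 10.9% lower. In WT 10 were higher and none lower, with a median of 0.18, against 12.1% and 10.7% of all genes. Mki67, the proliferation marker Ki-67, stood at 1278, 1370 and 1232 CPM and then at 1592, 1482, 1634 and 1728 CPM (0.31 ± 0.08, edgeR adjusted p = 0.01). Prc1, a spindle midzone protein, rose by 0.26 ± 0.08 with overlapping libraries and in 8 of 17 settings, and Cdc20, the activator of the anaphase-promoting complex, fell by 0.55 ± 0.10 on the log2 scale. The difference of the age effects was below 0 for 23 of 23 mitosis genes, with a median of -0.20 against -0.006 over all genes, and none was called. These genes are not independent replicates. At E15.5 they summed to 4820 to 5500 CPM in KO and 5590 to 6490 in WT. The sums at E13.5 were 4380 to 5080 CPM in KO and 4960 to 5390 in WT. Without KO E13.5 replicate 4 no mitosis gene was higher, and without KO E13.5 replicate 2 or KO E15.5 replicate 1, 3 or 4 1 was. DNA replication genes had 1 of 25 higher, Tyms (0.32 ± 0.09), and 2 lower, the helicase subunits Mcm2 (-0.25 ± 0.06) and Mcm7 (-0.38 ± 0.11). Those counts, too, lie below the KO shares of all genes. Without KO E13.5 replicate 3 the list had 3 higher and 1 lower, and none was higher without KO E13.5 replicate 2 or 4 or KO E15.5 replicate 1. Among 13 cyclins D and inhibitors, Cdkn2c, the CDK inhibitor p18, rose by 1.49 ± 0.18 and Rbl1, the pocket protein p107, by 0.41 ± 0.08. Cdk4 and Ccnd1, the kinase and cyclin that start the cycle, fell by 0.52 ± 0.10 and 0.95 ± 0.25. That list had 3 members higher and 3 lower. When KO E13.5 replicate 1 was included, it had 2 higher and 1 lower, the mitosis list 0 higher and 1 lower, and the DNA replication list 0 higher and 2 lower.

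The largest single increases included the neutrophil genes S100a8, S100a9, Ngp and Ltf. Among called genes with at least 5 CPM at the higher age and no overlap, the 12 largest were Pdlim3, Fmo2, Ngp, Ltf, Frmpd4, Cst12, Stfa2l1, S100a8, Gda, Stfa3, S100a9 and Arsj, with log2 fold changes of 3.00 to 3.72. Pdlim3, a cytoskeletal protein of muscle, led, from 25.2, 5.85 and 11.7 CPM to 224, 184, 219 and 164 (3.72 ± 0.36, edgeR adjusted p = 1.18e-05). Arsj, an arylsulfatase, rose from 1.16, 0.836 and 0.649 CPM to 8.82, 7.56, 6.79 and 5.42. S100a8, a subunit of the neutrophil protein calprotectin, stood at 3.60, 7.36 and 14.98 CPM and then at 54.3, 41.9, 60.5 and 176 CPM (3.24 ± 0.70, adjusted p = 0.00425). S100a9, Ngp and Ltf encode further neutrophil granule proteins, and each was also highest in KO E15.5 replicate 4. Stfa2l1 and Stfa3 belong to a cluster of near-identical stefin genes that can share reads.

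The 12 largest decreases included the embryonic globin Hbb-y, the collagen chains Col2a1 and Col9a1, and Hsd3b6. Col2a1, the chain of collagen II, stood at 27.4, 56.2 and 38.2 CPM and then at 0.867, 1.25, 0.826 and 1.48 CPM (-5.18 ± 0.26, edgeR adjusted p = 1.05e-08). WT fell by -5.13 ± 0.27 on the same scale. Col9a1, its collagen IX partner, went from 14.2, 28.6 and 26.2 CPM to 3.42, 3.05, 3.54 and 2.73 in KO (-2.84 ± 0.28), and in WT to 0.198 to 0.714 CPM (-5.19 ± 0.34). That difference of 2.35 ± 0.45 was not called (adjusted p = 0.0692). Hbb-y, the embryonic beta-type globin, went from 2622, 8093 and 9414 CPM to 12.04, 21.9, 62.4 and 148 (-6.77 ± 1.30). Ctrb1, the precursor of a chymotrypsin, fell by 3.79 ± 0.24 on the log2 scale, Grin2c, a glutamate receptor subunit, by 2.52 ± 0.41, Slc6a4, the serotonin transporter, by 2.36 ± 0.30, Tac2, a tachykinin, by 2.24 ± 0.33 and Cacna2d2, a calcium channel subunit, by 2.23 ± 0.41.

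Immediate early and dissociation stress genes, which respond within minutes to handling, had 5 of 23 members lower and none higher in KO, and all 23 log2 fold changes were below 0 (median -1.12). In WT none was called, at a median of -0.08, and no member was called for a difference. Hspa1b, an inducible heat shock protein 70, stood at 320, 23.2 and 48.7 CPM and then at 6.83, 10.9, 11.8 and 8.70 CPM (-3.79 ± 0.82, edgeR adjusted p = 0.00443). Hspa1a, its near-identical neighbour that can share reads, fell by 4.23 ± 1.04, Hsph1, a cochaperone, by 1.51 ± 0.36 and Myc, a growth regulator, by 0.74 ± 0.21. For these 3 genes the libraries of the 2 ages overlapped. The list summed to 5490, 2700 and 5900 CPM in KO E13.5 and to 2550, 1960, 2680 and 2710 in KO E15.5. Among WT libraries, E13.5 replicate 4 (7280 CPM) and E15.5 replicate 3 (6790 CPM) stood above the remaining range of 1810 to 2830 CPM. The part of these library differences in the other results was not tested. The count was 3 with KO E13.5 replicate 1 and when KO E13.5 replicate 4 or KO E15.5 replicate 1 or 2 was left out. It was 1 without KO E13.5 replicate 2, 11 by limma-voom, 14 with no filter and 18 in the 7 KO libraries alone.

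Of the named genes, 34 lost their call with age in KO when 1 KO library was left out, with edgeR adjusted p of 0.0502 to 0.231 there and the same direction. Without KO E13.5 replicate 2, Hspa1a (-2.08), Hspa1b (-1.94), Hsph1 (-0.88), Ngp (2.92) and Ngfr (-0.28) were not called. Without KO E13.5 replicate 4, Ccnd1 (-0.45), Dll4 (-0.80), Mmrn2 (-0.78), Smad7 (-0.55), Mki67 (0.28) and Npbwr1 (-1.04) were not called, and without KO E13.5 replicate 3, Mcm7 (-0.28) was not. Ccr2 (1.19 and 1.37), Crabp1 (-1.51 and -1.44) and Stfa3 (2.52 and 3.44) lost their call without either KO E13.5 replicate 2 or 4, and Stfa2l1 (2.67 and 3.16) without either replicate 2 or 3. Ltf (2.71 to 4.38) was not called without KO E13.5 replicate 2 or 4 or KO E15.5 replicate 4, Igf2 (-0.36 to -0.32) and Rara (-0.43 to -0.36) without KO E13.5 replicate 2 or 4 or KO E15.5 replicate 2, Tyms (0.25 to 0.29) without KO E13.5 replicate 2 or 4 or KO E15.5 replicate 1, and Nid2 (0.36 to 0.52) without KO E13.5 replicate 3 or 4 or KO E15.5 replicate 2. Por (-0.52 to -0.39) and Myc (-0.67 to -0.61) lost it in 4 such tests, and Cyb5a (-0.32 to -0.26), Hhip (-0.45 to -0.29), Notch4 (-0.73 to -0.53), Prc1 (0.22 to 0.26) and Sc5d (0.36 to 0.60) in 5. In the TGF-beta superfamily, Acvr1c (-0.92 to -0.72) was not called without KO E13.5 replicate 3 or KO E15.5 replicate 1. Tgfb1 (-0.51 to -0.40) was not called without KO E13.5 replicate 2 or KO E15.5 replicate 1 or 2, nor Smad3 (-0.33 to -0.23) without KO E13.5 replicate 2 or 4 or KO E15.5 replicate 1. Bmp7 (-0.88 to -0.65) lost its call in 5 such tests, and Acvr1b (-0.37 to -0.29) and Ltbp3 (0.28 to 0.44) in 6.

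Most of the age effect was shared by both genotypes. In WT 4655 genes were called (22.8%), 2462 higher (12.1%) and 2193 lower (10.7%), and 2634 were called in both, 60.6% of the KO calls and 56.6% of the WT calls. Of these, 2626 had the same direction in both genotypes and 8 the opposite one. Among the 4350 genes called in KO, 4224 (97.1%) had the same sign in WT, against 77.5% of all genes tested. Across genes, which are not independent replicates, the 2 age effects correlated at r = 0.695. They share no library. With KO E13.5 replicate 1 in the fit, 1364 genes were called in WT (6.79%).

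**Figure D4:**
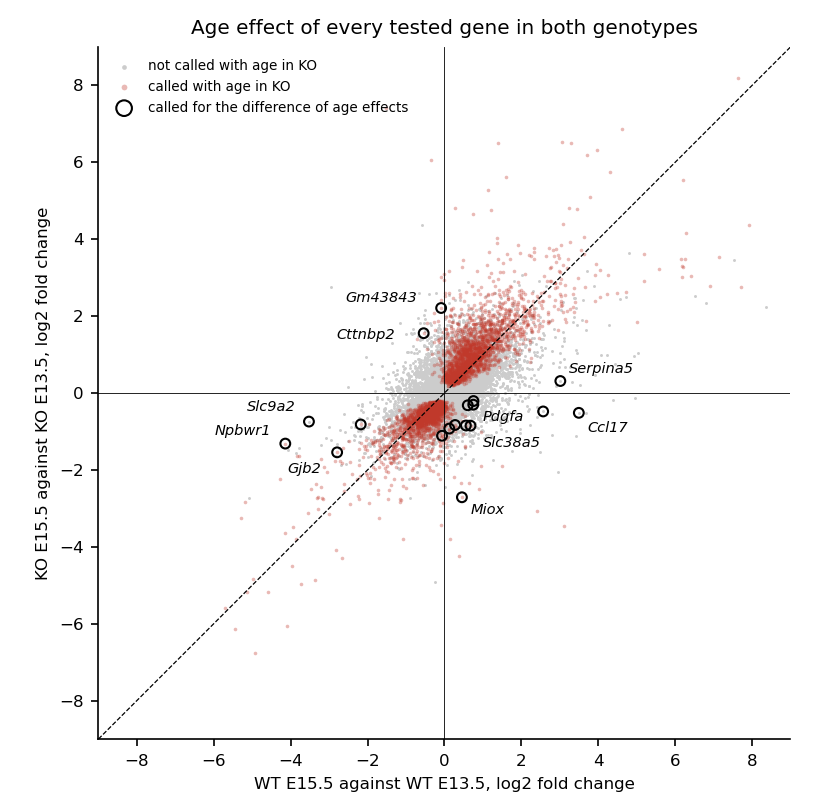
Log2 fold change of E15.5 against E13.5 in WT (horizontal axis) and in KO (vertical axis) for the 20406 genes tested; red points were called in KO, black rings mark the 18 genes called for the difference of the 2 effects, and the dashed line is equality. Most red points share their sign in both genotypes, and Ccl17 and Serpina5 lie at 3.5 and 3.02 in WT and at -0.51 and 0.31 in KO.

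A small set of genes followed another course with age in KO than in WT. The difference of the age effects, KO minus WT, was called for 18 of 20406 genes (0.0882%), 6 above 0 (0.0294%) and 12 below (0.0588%), and 1429 had an unadjusted p under 0.05. Of the 12 below 0, Ccl17, AF529169, Serpina5, Socs2, Lama3 and Ccnd2 rose in WT and were not called in KO, Slc38a5 and Pdgfa rose in WT and fell in KO, and Gja1, Sel1l3, Rnf19b and Miox fell in KO and were not called in WT. Of the 6 above 0, Gjb2, Erbb3 and Npbwr1 fell in both genotypes and by more in WT, Slc9a2 fell in WT and was not called in KO, Cttnbp2 fell in WT and rose in KO, and Gm43843 rose in KO. AF529169, Ccnd2 and Gm43843 are outside the rule for named genes and were chosen after their values were seen.

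With KO E13.5 replicate 1, 4 genes were called for the difference (0.0199%): AF529169, Ccl17, Cttnbp2 and Gm43843. DESeq2 called 79 and limma-voom with sample quality weights 20. Leaving out 1 library gave 4 calls without KO E13.5 replicate 2, 6 without KO E13.5 replicate 3 or 4, without KO E15.5 replicate 1 or 4 and without WT E13.5 replicate 4, 9 without WT E13.5 replicate 3 or WT E15.5 replicate 2, and 11 without WT E13.5 replicate 2, WT E15.5 replicate 1 or KO E15.5 replicate 2. The others gave 13 to 25. Over 23 settings, AF529169, Ccl17 and Cttnbp2 were called in all 23, Slc38a5 in 22, Serpina5 in 20, Slc9a2 in 19, Gja1 in 16, Erbb3, Gjb2 and Gm43843 in 14, Pdgfa in 11, Ccnd2 and Lama3 in 10, Socs2 in 9, and Miox, Npbwr1, Rnf19b and Sel1l3 in 8.

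The 250 bases before the RefSeq start (GRCm38.p6) are shown for 4 of the genes below 0, as examples of the courses below 0, with the SMAD-box letters CAGAC or their complement GTCTG in capitals, a motif chosen after the values were seen. The runs are written 5′ to 3′ and all 4 genes lie on the plus strand. They cover chr8:94810203-94810452 for Ccl17, chr12:104100863-104101112 for Serpina5, chrX:8271131-8271380 for Slc38a5 and chr10:56377050-56377299 for Gja1. By the gene position given below, from another annotation, the Slc38a5 window lies almost wholly inside that gene.
Ccl17: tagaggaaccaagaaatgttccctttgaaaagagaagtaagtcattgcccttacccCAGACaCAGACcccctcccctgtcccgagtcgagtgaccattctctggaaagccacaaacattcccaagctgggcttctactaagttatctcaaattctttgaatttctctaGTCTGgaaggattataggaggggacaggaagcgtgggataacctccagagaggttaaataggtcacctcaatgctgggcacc
Serpina5: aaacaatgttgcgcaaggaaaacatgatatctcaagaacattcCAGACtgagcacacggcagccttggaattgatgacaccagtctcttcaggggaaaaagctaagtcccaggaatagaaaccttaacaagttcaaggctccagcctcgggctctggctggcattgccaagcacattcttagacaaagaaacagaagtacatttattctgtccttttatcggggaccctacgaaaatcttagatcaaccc
Slc38a5: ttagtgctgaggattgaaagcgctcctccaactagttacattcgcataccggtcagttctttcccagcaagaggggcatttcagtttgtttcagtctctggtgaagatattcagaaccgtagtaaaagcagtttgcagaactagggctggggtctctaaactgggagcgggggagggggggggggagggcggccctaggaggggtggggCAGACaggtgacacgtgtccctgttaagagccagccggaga
Gja1: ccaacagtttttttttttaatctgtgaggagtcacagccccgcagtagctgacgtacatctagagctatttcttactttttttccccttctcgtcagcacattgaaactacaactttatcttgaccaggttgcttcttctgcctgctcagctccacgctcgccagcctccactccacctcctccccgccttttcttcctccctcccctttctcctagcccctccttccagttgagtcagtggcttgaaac

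Ccl17 held these letters 3 times, Serpina5 and Slc38a5 once each and Gja1 not at all in this window. Of the 10 genes below 0 that the rule named, 7 had a promoter in the table, and 5 of their 8 promoters (62.5%) held the letters, against 42.2% of all 32851 promoters. So short a motif is common, and a match is a description of the letters.

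Ccl17, a chemokine that binds CCR4 (chromosome 8, 94810453 to 94812036), rose in WT and not in KO. Its CPM was 1.54, 3.85 and 3.83 in KO E13.5 and 2.81, 1.25, 2.16 and 1.93 in KO E15.5, and the KO ages overlapped (-0.51 ± 0.39, edgeR adjusted p = 0.366). In WT it was 4.49 to 11.5 CPM at E13.5 and 65.3 to 97.3 at E15.5 (3.5 ± 0.28), an 11.3-fold rise. The difference was -4.01 ± 0.48 (adjusted p = 0.0022), and -3.73 with KO E13.5 replicate 1 (adjusted p = 0.0347). AF529169 (chromosome 9, 89587216 to 89623125) followed the same course, at 1.46 to 3.68 CPM in the 7 KO libraries, and in WT at 2.18 to 3.08 for the younger age and 13.9 to 16.99 for the older. Its difference was -3.05 ± 0.30 (adjusted p = 0.000228).

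Serpina5, the serine protease inhibitor known as protein C inhibitor (chromosome 12, 104101113 to 104106137), is a member of the Sertoli list. It stood at 6.69, 4.18 and 7.67 CPM and then at 9.998, 6.52, 8.86 and 6.5 CPM in KO, with overlap (0.31 ± 0.30). In WT it went from 4.6 to 11.5 CPM to 42.8 to 76.5 CPM (3.02 ± 0.26). The difference was -2.70 ± 0.39 (edgeR adjusted p = 0.0126), and -2.33 with KO E13.5 replicate 1 (adjusted p = 0.683).

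3 further genes rose in WT and were not called in KO. Ccnd2, the D-type cyclin that activates CDK4 and CDK6, was 357, 284 and 249 CPM and then 223, 209, 276 and 243 in KO (-0.32 ± 0.11, edgeR adjusted p = 0.0559), and 292 to 319 and then 407 to 502 in WT (0.61 ± 0.11). Socs2, a feedback inhibitor of cytokine receptors, was 89.5, 99.0 and 108 CPM and then 81.6, 66.3, 92.0 and 79.8 in KO, and 83.5 to 118 and then 133 to 180 in WT. For both the KO ages overlapped and the WT ages did not. Lama3, a laminin chain of epithelial basement membrane, was 35.5 to 36.5 CPM and then 29.2 to 32.7 in KO and 28.2 to 38.7 and then 45.0 to 62.6 in WT. The differences were -0.93 ± 0.16 for Ccnd2, -1.05 ± 0.18 for Socs2 and -0.96 ± 0.16 for Lama3, with adjusted p of 0.0278 to 0.0301.

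Slc38a5 and Pdgfa moved in opposite directions in the 2 genotypes. Slc38a5, a glutamine and serine transporter (chromosome X, 8271133 to 8280179), was 9.07, 14.7 and 10.03 CPM and then 5.92, 6.11, 6.52 and 5.96 in KO, and 9.88 to 10.9 and then 14.3 to 20.8 in WT. Neither genotype's ages overlapped, and the log2 fold changes were -0.85 ± 0.17 in KO and 0.68 ± 0.15 in WT, a difference of -1.53 ± 0.22 (edgeR adjusted p = 0.0129). Pdgfa, the growth factor that Sertoli cells send to PDGFRA-bearing stromal cells (chromosome 5, 138976014 to 138997370), was 49.2, 46.3 and 53.7 CPM and then 23.6, 26.9, 31.0 and 29.6 in KO. In WT it was 43.1 to 56.4 and then 54.8 to 103, with overlap. The difference was -1.40 ± 0.24 (adjusted p = 0.0301).

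The fourth course was a fall in KO beside a level course in WT. Gja1, the gap junction protein connexin 43 of Sertoli and Leydig cells (chromosome 10, 56377330 to 56402513), was 218, 221 and 224 CPM and then 104, 101, 146 and 115 in KO (-0.92 ± 0.12, edgeR adjusted p = 0.000134). In WT it was 175 to 222 and then 194 to 256 (0.13 ± 0.11, not called). The difference was -1.05 ± 0.17 (adjusted p = 0.0247). Rnf19b, a ubiquitin ligase, fell in KO from 67.8, 75.1 and 88.0 CPM to 35.4, 40.0, 34.2 and 33.2, and Sel1l3 from 77.4, 110 and 84.3 CPM to 45.5, 54.4, 55.1 and 48.0. Miox, the enzyme that opens the inositol ring, fell in KO from 1.89 to 2.96 CPM to 0.179 to 0.459. Their differences were -1.05 ± 0.19, -1.11 ± 0.20 and -3.17 ± 0.57, with adjusted p of 0.0452 to 0.0485.

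Gjb2, Erbb3, Slc9a2 and Npbwr1, with differences above 0, ended lower in WT than in KO. Gjb2, the gap junction protein connexin 26 (chromosome 14, 57098600 to 57104702), was 41.2, 42.8 and 46.4 CPM and then 15.6, 13.6, 16.02 and 14.5 in KO (-1.54 ± 0.15), and 24.3 to 35.8 and then 3.70 to 5.93 in WT (-2.79 ± 0.15). Erbb3, a neuregulin receptor of glia and epithelia (chromosome 10, 128567523 to 128589652), was 84.1, 80.4 and 85.0 CPM and then 44.0, 37.5, 62.8 and 44.5 in KO (-0.82 ± 0.16), and 42.1 to 62.7 and then 10.4 to 14.5 in WT (-2.18 ± 0.16). No ages overlapped for either. Slc9a2, a sodium and proton exchanger, was 7.02 to 9.61 CPM and then 3.88 to 6.57 in KO (-0.74 ± 0.28, not called), and 3.92 to 9.77 and then 0.384 to 0.821 in WT. Npbwr1, a neuropeptide receptor, was 6.82 to 12.6 CPM and then 1.94 to 4.75 in KO, and 5.83 to 11.4 and then 0.166 to 0.762 in WT. The differences were 1.25 ± 0.21, 1.36 ± 0.22, 2.78 ± 0.42 and 2.82 ± 0.52 (edgeR adjusted p = 0.0278, 0.0278, 0.0146 and 0.0485).

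Cttnbp2, a cortactin-binding protein of dendritic spines (chromosome 6, 18366478 to 18514843), rose in KO and fell in WT. It was 38.3, 36.0 and 28.4 CPM and then 116, 130, 75.3 and 80.4 in KO (1.56 ± 0.22), and 61.4 to 100 and then 41.6 to 63.3 in WT (-0.54 ± 0.19). The KO ages did not overlap and the WT ages did, and at E13.5 the KO libraries lay below the WT ones. The difference was 2.10 ± 0.29 (edgeR adjusted p = 0.0086). Gm43843 lies inside Cttnbp2 (18429659 to 18431245), and since the counting did not use strand, by the deposited table's name, the reads of the 2 cannot be told apart. It rose in KO from 1.48 to 1.99 CPM to 6.38 to 11.7, and its difference was 2.3 ± 0.38 (adjusted p = 0.0278).

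**Figure D5:**
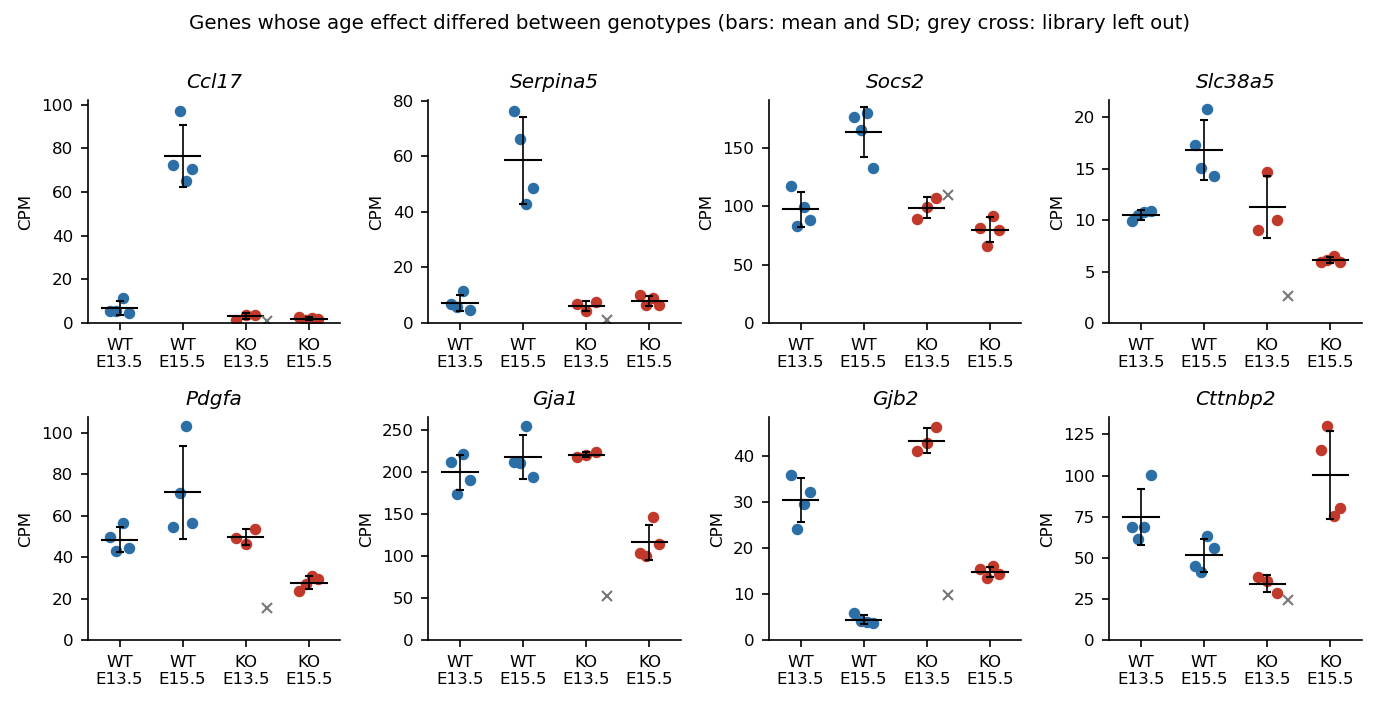
CPM (vertical axes, linear and starting at 0) of 8 genes called for the difference of age effects, in WT (blue) and KO (red) libraries; points are libraries, bars and whiskers are mean and SD, and the grey cross is KO E13.5 replicate 1. Ccl17, Serpina5 and Socs2 gain in WT alone, Slc38a5 and Pdgfa move apart, Gja1 falls in KO, Gjb2 falls in both but to 13.6 to 16.02 CPM in KO against 3.70 to 5.93 in WT, and Cttnbp2 rises in KO.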

How the data were processed

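RNA-seq counts of 47729 genes in 16 libraries were used as the authors deposited them, as raw counts per gene with no normalization. Per the submitters' processing notes, reads went through STAR 2.5.2b and featureCounts (Subread 1.5.2) on build GRCm38, with FastQC 0.11.5, MultiQC 1.0 and Picard 2.9.0 also listed. The deposited table's name calls its counts non-stranded, and overlapping genes on opposite strands were treated as not separable. Other settings are not given in the sources used here.

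Groups came from genotype and age in the labels. KO E13.5 replicate 1 was left out of the main test, so 15 libraries in 4 groups entered 1 fit. Genes passed filterByExpr, library sizes were scaled by TMM, and edgeR 4.0.16 (R 4.3.3) quasi-likelihood tests gave the age effect in KO, the age effect in WT, and their difference, with Benjamini-Hochberg adjustment over all tested genes at 0.05. CPM values are scaled by TMM. Each SE was derived from the fold change and its F statistic (|log2 fold change| over √F). The test was checked on simulated data. Alternatives were RLE and upper quartile scaling, no filter, a filter of 1 CPM in 3 libraries, DESeq2 1.42.0, limma 3.58.1 (voom with sample quality weights), all 16 libraries, KO libraries alone, the 2 libraries of title number 1052 summed, and each library left out.

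The 29 gene lists (523 entries) and the comparison were chosen with earlier results of these data known. Named genes were Inhba, the 12 largest called changes in each direction with no overlap and at least 5 CPM in the higher group, up to 4 called members of each list by smallest p, up to 10 genes in each direction for the difference with at least 2 CPM in a group, and TGF-beta superfamily members. Predicted genes, ribosomal and mitochondrial genes and pseudogenes were left out of the ranked names, and some list members that were counted are not reported here by name. Gene positions are those of the GENCODE vM21 annotation (GRCm38), and promoters those of RefSeq (GRCm38.p6). Replicates of a group are separate libraries by their labels.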

Additional observations from a re-analysis of the deposited data

Results flagged for a closer look

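In groups of 4 libraries, 240 sets of values were searched for a library set apart from the other 3, and 14 were found; chance alone gives about 1 in 20. In KO E15.5 replicate 4 these were the neutrophil genes Ngp (80 CPM), S100a8 (176.0 CPM) and S100a9 (341.0 CPM), the summed erythroid list (1330.0 CPM), the embryonic globin Hbb-bh1 (0.224 CPM), Hsd3b6 (5.51 CPM) and Ctrb1 (3.99 CPM). Their part in the age effects was not tested beyond leaving that library out, when Ltf was not called and the other neutrophil genes named were. In KO E15.5 replicate 3 the values were Fshr (10.2 CPM), the hyaluronan receptor Lyve1 (12.4 CPM) and the nodal antagonist Lefty2 (16.2 CPM). KO E15.5 replicate 2 had Cdk4 at 135.0 CPM and KO E15.5 replicate 1 had Gm43843 at 11.7 CPM. In WT, Ccl17 was at 11.5 CPM in E13.5 replicate 3 and Gjb2 at 5.93 CPM in E15.5 replicate 1. Sums of gene lists were searched in KO E15.5 only.

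The age effect differed between KO and WT for 18 genes by edgeR's test of the difference. Log2 differences, KO minus WT, were below 0 for Ccl17 (-4.01), Miox (-3.17), AF529169 (-3.05), Serpina5 (-2.70), Slc38a5 (-1.53), Pdgfa (-1.40), Sel1l3 (-1.11), Gja1 (-1.05), Rnf19b (-1.05), Socs2 (-1.05), Lama3 (-0.96) and Ccnd2 (-0.93). They were above 0 for Npbwr1 (2.82), Slc9a2 (2.78), Gm43843 (2.3), Cttnbp2 (2.10), Erbb3 (1.36) and Gjb2 (1.25).

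Germ cell genes summed to 5230.0 CPM in KO E13.5 replicate 1, the library left out of the main test, against 17.9 to 61.7 CPM in the other KO E13.5 libraries.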

How the results depend on the processing

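The 4350 genes called with age in KO became 336 in the 8 KO libraries alone and 3311 with the 2 libraries of title number 1052 summed. They became 2491 to 4352 when 1 KO library was left out, the lowest without KO E13.5 replicate 4. The 4655 genes called in WT became 1364 with KO E13.5 replicate 1 in the fit, the WT libraries being the same. The median SE of the WT age effect was 0.183 without KO E13.5 replicate 1 and 0.272 with it. Its median log2 fold change was 0.019 and 0.018. The 18 genes called for the difference of the age effects became 79 by DESeq2, 29 with no filter, 11 with the 2 libraries of title number 1052 summed, 4 with KO E13.5 replicate 1, and 4 to 25 when 1 library was left out. The cause of these shifts was not tested. The remaining normalizations, filters and tools kept each count within 1.5 times. Upper quartile scaling moved the share of higher calls in KO from 48.9% to 60.4%. Prc1 turned to -0.039 both with 16 libraries and in the 8 KO libraries alone. Of genes not called, Insl3 turned to 0.001 in the 8 KO libraries alone. Acvr2a turned to 0.047 with 16 libraries, 0.049 in the 8 KO libraries alone and 0.026 with upper quartile scaling, and Smad4 to 0.001, 0.002 and 0.015 there. Smad2 turned to -0.07 with 16 libraries, -0.069 in the 8 KO libraries alone, -0.03 by limma-voom, and -0.182 and -0.098 without KO E13.5 replicate 3 and KO E15.5 replicate 3, in a range of -0.182 to 0.221 without 1 KO library at a time. No other of the 154 genes followed changed direction with age in KO. No paired analysis was possible because replicate numbers follow accession order and the KO libraries of the 2 ages share no title number. The lowest depth, 6131592 counts in KO E13.5 replicate 3, limits precision for genes of low CPM.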
